A study of Mus musculus with 32 samples.

Results

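The genes described here mark T lymphocytes and natural killer (NK) cells in mouse liver: Cd3e, Cd3g, Cd4, Cd8a, Themis, Nkg7, Gzma, Gzmb, Prf1 and Klrb1c. They were chosen by name: every non-control probe of the array that carries 1 of these 10 gene names in the scanner files was taken, which gave 19 of 56605 probes. All 10 genes had at least 1 probe bright enough to be tested, among 23656 tested genes. The study asks, from its labels, whether diet changes the response of the liver to E171, food-grade titanium dioxide.

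RNA from the livers of 32 mice, all F1 males of the C57BL/6J strain, was labelled with Cy3 and hybridised to Agilent 1-colour arrays, 1 array per mouse and 8 mice per group. Mice ate a normal diet or a Western diet, with plain pellets or with pellets giving a target dose of 10 mg E171 per kg of body weight per day, which makes 4 groups: controls and E171 mice on each diet (ND_CONT, ND_E171, WD_CONT and WD_E171 in the labels). The labels call the second diet Western in the group names and high-fat in the protocol. F0 females received their pellets for 40 days before mating, and the F1 mice remained on the treatment of their mother; the diet changed at 5 weeks, lasted 16 weeks, and livers were taken at 21 weeks of age. Litter is not given in the labels, so mice were taken as independent, which littermates need not be.

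As background, T cells carry an antigen receptor whose signal runs through the CD3 chains, with CD4 or CD8 as coreceptor and THEMIS as a signalling partner of the receptor during thymic selection. Cytotoxic T cells and NK cells kill by releasing perforin and granzymes from granules, and NK cells are recognised in C57BL/6 mice by NK1.1, the product of Klrb1c. The liver holds many resident NK, ILC1, NKT and CD8 T cells, and T cells that gather there have been studied widely in fatty liver disease. In whole liver, more cells of a type and more RNA per cell cannot be told apart.

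Arrays had 32164 to 37261 probes that the scanner software called well above background, 0 saturated spots, and correlations within a group of at least 0.979. WD_E171 mouse 8 had the fewest such probes, and the lowest correlation was that of WD_E171 mice 3 and 8 with each other. Each of the 4 slides held 2 mice per group. Levels below are normalized log2 signals of 1 probe, so they compare mice and never 1 probe with another. Each array's background limit, taken as its lowest signal called well above background, lay between 2.33 and 3.73 on this scale. A signal over this limit can still fail the call, as Cd8a did at 3.77 in WD_E171 mouse 8. The lineage markers were measured: Cd3d, another CD3 chain, was well above background on 8 of 8 arrays in each group, as was Klrd1, which encodes CD94. Ncr1, which encodes the NK receptor NKp46, was well above background on 0 of 8 arrays in each group, and the receptor constant genes Trac and Trbc2 were not analysed here.

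Calls for the Western diet went in both directions among these genes, as they did over all tested genes. In controls the number called lay near the share over all genes. In control mice, 3 of 10 were called higher (Themis, Cd8a and Gzma) and 2 of 10 lower (Cd4 and Cd3e), beside 18.5% of all tested genes called higher and 28.7% called lower, 47.3% in either direction. In E171 mice, 5 were called higher (Themis, Cd8a, Nkg7, Gzma and Klrb1c) and 3 lower (Cd4, Cd3e and Prf1), beside 22.2% and 31% of all genes, 53.2% in either direction. A gene was called at an adjusted p under 0.05 in limma, adjusted over all tested genes by the method of Benjamini and Hochberg. The median difference of the 10 genes was 0.38 (log2) in controls and 0.83 in E171 mice, and that of all tested genes was -0.10 in both. Themis and Cd8a passed the filter on dim probes only through the Western-diet groups, so their direction is in part fixed by passing. The count of calls in controls was 3 in place of 5 with another background correction (normexp) and with the authors' deposited values. The deposited values also changed the balance over all genes: 54.4% of the calls in controls were in the higher direction, beside 39.2% here, and 51.1% beside 41.7% in E171 mice.

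**Figure D1:**
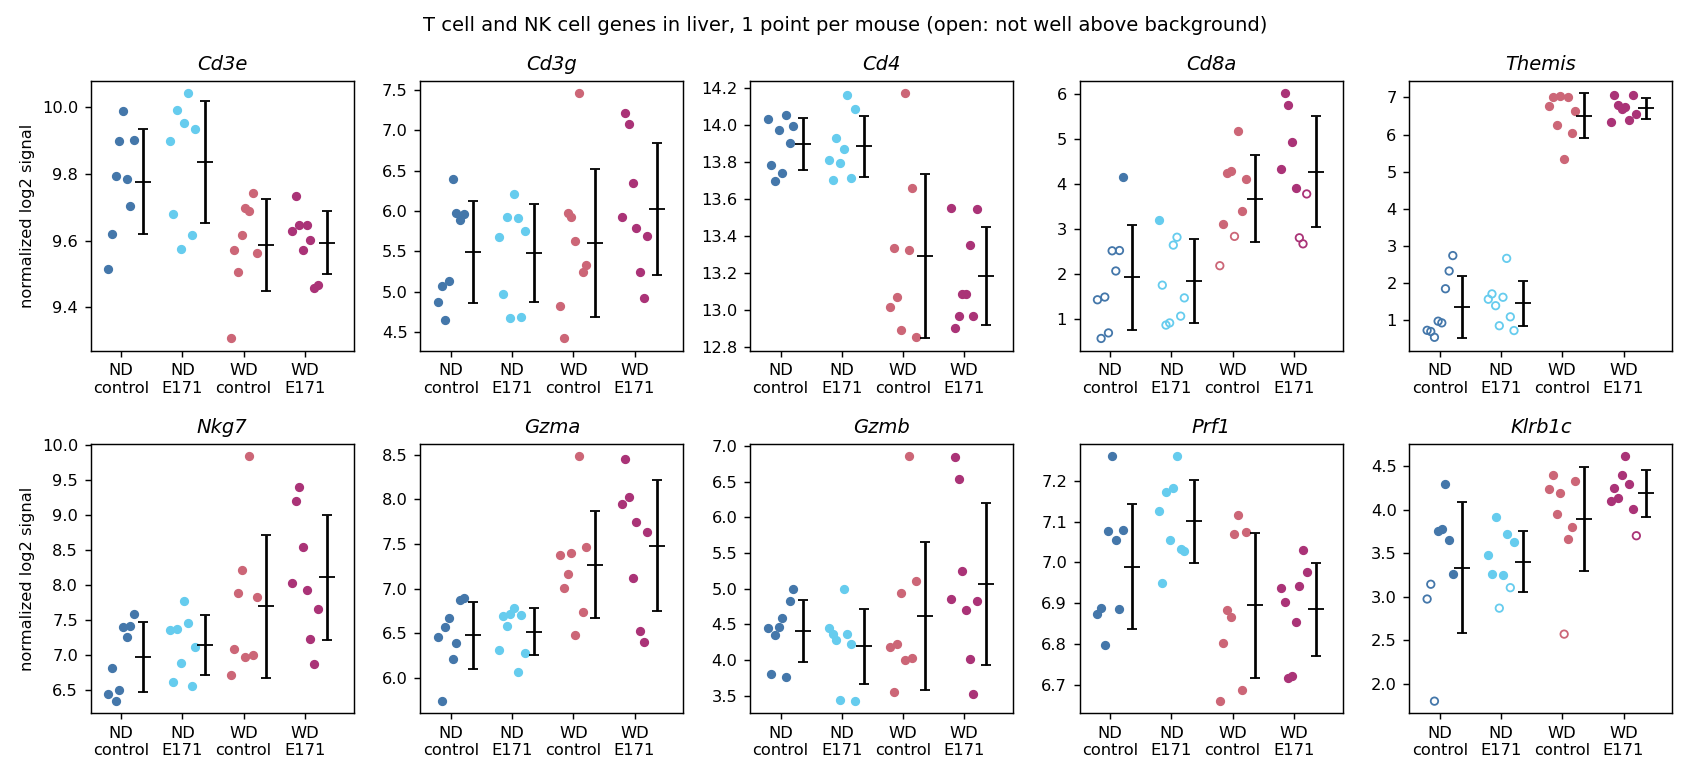
Normalized log2 signal of the brightest probe of each gene in each of the 32 mice, by diet (ND normal, WD Western) and E171; filled points are well above background, open points are not, and the black mark is the group mean with its SD (n = 8). Themis separated the diets completely, Cd4 and Cd3e were lower on the Western diet, and a few Western-diet mice lay far above their group for Cd3g, Nkg7, Gzma and Gzmb.

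Among the chains and coreceptors of the T cell receptor, Cd3e and Cd3g encode the CD3 epsilon and gamma chains that carry its signal into the cell. Cd3g lay at 4.65, 5.51 and 6.39 (lowest, median, highest) in normal-diet controls and at 4.42, 5.48 and 7.46 in Western-diet controls. In E171 mice it lay at 4.68, 5.72 and 6.21 on the normal diet and at 4.92, 5.86 and 7.22 on the Western diet. The groups overlapped, and the highest value of each Western-diet group stood above every normal-diet mouse. The difference was 0.11 (log2, 95% interval -0.63 to 0.84, adjusted p = 0.826 in limma) in controls and 0.55 (-0.19 to 1.28, adjusted p = 0.2) in E171 mice, so changes of this gene in either direction remain within the intervals.

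Cd3e, at its brighter probe, lay at 9.52, 9.79 and 9.99 in normal-diet controls and at 9.31, 9.59 and 9.74 in Western-diet controls. Under E171 it lay at 9.57, 9.92 and 10.04 on the normal diet and at 9.46, 9.62 and 9.73 on the Western diet. In each pair the groups overlapped, with 5 of 8 normal-diet mice above every Western-diet mouse. The difference was -0.19 (SE 0.08, adjusted p = 0.0383 in limma) in controls and -0.24 (SE 0.08, adjusted p = 0.00813) in E171 mice. Each array was scaled by its 75th percentile of intensity, which differed between the diets. It averaged 255 in normal-diet and 300 in Western-diet controls, and 248 and 280 in E171 mice. The part of this scaling in differences this small cannot be told from these values. The call in controls was lost when any 1 of 9 of the 16 mice was left out, with an adjusted p up to 0.0991, and also with normexp (adjusted p = 0.0746), quantile scaling (0.0747), the deposited values (0.181) and no filter (0.0649). The other Cd3e probe, 426 bases upstream in the transcript's direction, gave -0.12 (adjusted p = 0.311) and 0.01 (adjusted p = 0.951), so the fall was seen at 1 of 2 probes. With the mean of both probes neither comparison was called (-0.16, adjusted p = 0.0838, and -0.12, adjusted p = 0.186). The last 30 bases of each are shown because the probes disagree; capitals mark AATAAA, the polyadenylation signal, which lies near the end of many transcripts.

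Cd3e probe 1: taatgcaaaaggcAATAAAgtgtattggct
Cd3e probe 2: atagctaagccctttcctacagctttctgt

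Probe 1 lies on chr9:44806828-44806887 and probe 2 on chr9:44807254-44807313 (mm9, minus strand), as the scanner files give them. AATAAA was in 3 of the 19 probes (Cd3e probe 1, Cd4 probe 1 and the Gzma probe) and in 9.77% of all non-control probes.

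Cd4 encodes the coreceptor of helper T cells, which some dendritic cells of mice carry too. Its brightest probe lay at 13.70, 13.94 and 14.05 in normal-diet controls and at 12.85, 13.20 and 14.17 in Western-diet controls. In E171 mice the values were 13.70, 13.84 and 14.16 on the normal diet and 12.90, 13.09 and 13.55 on the Western diet. In controls the groups overlapped through WD_CONT mouse 5, which at 14.17 stood above all normal-diet controls. In E171 mice the groups did not overlap. Cd4 was lower by -0.61 (log2, SE 0.14, adjusted p = 5.92e-04 in limma) and by -0.70 (SE 0.14, adjusted p = 9.04e-05). Groups that do not overlap, lower on the Western diet, were found for 8.89% of all tested genes in E171 mice and 5.37% in controls.

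The second Cd4 probe gave nearly the same differences, -0.66 (adjusted p = 2.75e-04) in controls and -0.77 (adjusted p = 3.22e-05) in E171 mice, and its diet groups overlapped in neither. It was well above background on all arrays, though far dimmer. Its median in normal-diet controls was 4.92, where probe 1 had 13.94 and probe 3 had 1.67. The cause of this gap was not tested. Cd4 probe 3 cleared background on 0 of 8 arrays in each group and gives no direction. The residual variation of probes 1 and 2, after group means were removed, correlated with r = 0.59 over 32 mice (permutation p adjusted over 3 genes = 0.0034; Spearman's rho 0.59, adjusted p = 0.00585; r = 0.55 without the 2 farthest mice). The ends of the 3 probes are shown because they differ so in detection.

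Cd4 probe 1: acagaaaAATAAAggctataAATAAAatgc
Cd4 probe 2: gcagtgtctactgagtgaaggtgataaggt
Cd4 probe 3: tgacagtgatgactaagatggcagagataa

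Probe 1 holds AATAAA at 2 places. It lies on chr6:124814711-124814770, probe 2 on chr6:124817706-124817765 and probe 3 on chr6:124815401-124815459 (mm9, minus strand). Probe 1 is thus 2995 bases further along the transcript's direction than probe 2 and 689 bases further than probe 3.

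Cd8a encodes the alpha chain of the coreceptor of cytotoxic T cells. Its brighter probe cleared background (well above, as called by the scanner software) on 1 of 8 arrays in each normal-diet group, on 6 of 8 in Western-diet controls and on 5 of 8 in Western-diet E171 mice. It lay at 0.56, 1.77 and 4.14 in normal-diet controls and at 2.18, 3.75 and 5.18 in Western-diet controls. Under E171 the values were 0.86, 1.60 and 3.20 on the normal diet and 2.66, 4.11 and 6.01 on the Western diet. The groups overlapped, and 6 of 8 Western-diet E171 mice stood above every normal-diet E171 mouse. The measured difference was 1.74 (SE 0.52, adjusted p = 0.0067 in limma) in controls and 2.43 (SE 0.52, adjusted p = 2.51e-04) in E171 mice. Its size is uncertain, since the normal-diet means of 1.92 and 1.83 lay below the mean background limits of those arrays, 2.89 and 2.92. With normexp, which adds an offset that compresses dim signals, it was 0.08 (adjusted p = 0.533) and 0.35 (adjusted p = 0.00962), and in the deposited values 0.49 (adjusted p = 0.0672) and 0.91 (adjusted p = 7.85e-04). The other Cd8a probe cleared background on 0 of 8 arrays in each normal-diet group, on 1 of 8 in Western-diet controls and on 3 of 8 in Western-diet E171 mice, too few to be tested. Cd8b1, the beta chain, was above background throughout and differed by 0.29 (adjusted p = 0.226) in controls and by 0.65 (adjusted p = 0.00682) in E171 mice.

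Themis showed the largest difference of the 10 genes in both diet comparisons. In each normal-diet group 0 of 8 arrays had its brightest probe well above background, and in each Western-diet group 8 of 8 did. In normal-diet controls it lay at 0.53, 0.94 and 2.74, and in Western-diet controls at 5.33, 6.70 and 7.05. In E171 mice it lay at 0.71, 1.47 and 2.66 on the normal diet and at 6.35, 6.71 and 7.08 on the Western diet. The diet groups did not overlap in either comparison, as for 4.6% (controls) and 9.14% (E171 mice) of all tested genes that were higher on the Western diet. Against the background limit of the normal-diet arrays, Themis was at least 12.3-fold higher in controls with the processing used here. In E171 mice it was at least 13.8-fold higher, and neither bound was tested itself. Here the bound sets the mean of the Western-diet group against, for each normal-diet array, the higher of its background limit and the probe's own signal. The measured differences of 5.17 and 5.26 (SE 0.30, adjusted p = 4.83e-14 and 1.51e-14 in limma) rest on signals below that limit. They were 2.49 and 2.59 in the deposited values and 1.30 and 1.37 with normexp, each still called. Both alternatives give folds below the bounds above, which thus hold only for the processing used here.

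The other 3 Themis probes were dimmer and did not pass the filter. Probe 2 was well above background on 2 of 8 Western-diet control and 1 of 8 Western-diet E171 arrays, probe 3 on 4 and 3, and probe 4 on 0 and 1; on the normal diet each was so on 0 of 8 arrays in both groups. Probe 3 lay at 0.40, 0.56 and 0.96 in normal-diet controls and at 0.71, 2.75 and 3.33 in Western-diet controls, with 7 of 8 Western-diet mice above every normal-diet mouse. Probe 2 lay at 0.82, 0.93 and 1.23 against 0.95, 2.47 and 3.77, again with 7 of 8 above. In E171 mice the diet groups did not overlap at probe 2 or probe 3, with measured differences of 1.80 and 2.17, beside 1.48 and 1.83 in controls; probe 4 gave 0.72 in controls and 0.86 in E171 mice, with overlap. These signals lay largely below background. Since the Western-diet means did not exceed the background limit of the normal-diet arrays, no fold is given. The probe ends are shown because 1 of 4 positions in the gene was bright enough for the difference to be bounded; none holds AATAAA.

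Themis probe 1: ataatctgcttctagttgtcttggaatcaa
Themis probe 2: aaaactagacaaaattaagcaacttgtggc
Themis probe 3: tgataagaaacagtatcagatttccgagct
Themis probe 4: cttacatgctttcttgagcatatgaaaaag

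Probe 1 lies on chr10:28602460-28602519 (mm9, plus strand), which is 100389 bases downstream of probe 3, 119659 downstream of probe 2 and 143525 downstream of probe 4. Probes 1 and 3 carry accessions of messenger RNAs and probe 4 that of a non-coding transcript of the gene.

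**Figure D2:**
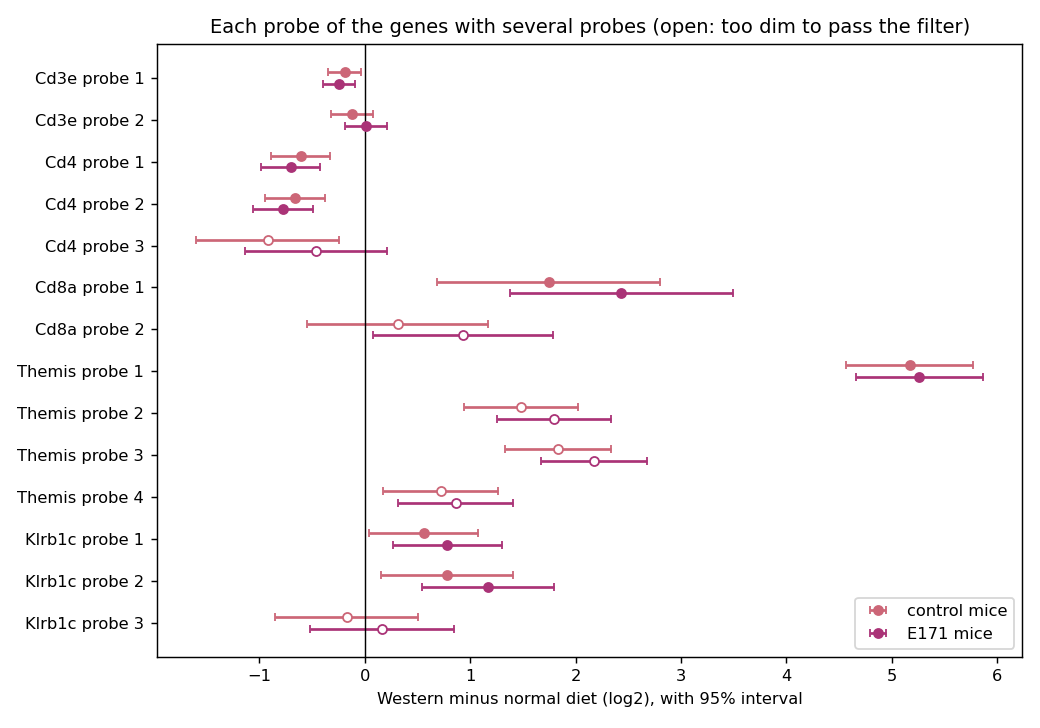
Difference between Western and normal diet (log2) with its 95% interval at each probe of the 5 genes with several probes, in control mice and in E171 mice (8 mice per group). Open points are probes too dim to pass the filter, whose values lie partly below background. The difference in controls was 5.17 at Themis probe 1 and 0.72 to 1.83 at its dimmer probes, while Cd4 probes 1 and 2 agreed within their intervals.

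Of the killing machinery, Gzma and Gzmb encode the serine proteases granzyme A and B, Prf1 the pore-forming perforin, and Nkg7 a membrane protein of the granules. Gzma lay at 5.74, 6.52 and 6.89 in normal-diet controls and at 6.48, 7.27 and 8.48 in Western-diet controls. Under E171 it lay at 6.06, 6.64 and 6.79 on the normal diet and at 6.40, 7.69 and 8.45 on the Western diet. In each pair 6 of 8 Western-diet mice stood above every normal-diet mouse, and the groups overlapped through the rest. Gzma was higher by 0.79 (SE 0.25, 1.73-fold, adjusted p = 0.0113 in limma) and by 0.96 (SE 0.25, 1.95-fold, adjusted p = 0.00212).

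Gzmb lay at 3.77, 4.45 and 4.99 in normal-diet controls and at 3.56, 4.21 and 6.86 in Western-diet controls, with the Western-diet median below the normal-diet one. In E171 mice it lay at 3.43, 4.32 and 4.99 and at 3.52, 4.84 and 6.84. The Western-diet values spread widely (SD 1.04 and 1.14, against 0.44 and 0.52 on the normal diet, n = 8 each). The difference was 0.21 (95% interval -0.62 to 1.03, adjusted p = 0.691) in controls and 0.88 (0.05 to 1.70, adjusted p = 0.0677) in E171 mice. The second passed the threshold when WD_E171 mouse 6 or 7 or ND_E171 mouse 5 was left out, with adjusted p of 0.0363, 0.0214 and 0.0477, and also with array weights (1.04, adjusted p = 0.0136).

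Nkg7 lay at 6.34, 7.04 and 7.58 in normal-diet controls and at 6.72, 7.46 and 9.85 in Western-diet controls. In E171 mice the values were 6.56, 7.24 and 7.77 on the normal diet and 6.88, 7.98 and 9.41 on the Western diet. The groups overlapped, and 5 of 8 Western-diet E171 mice stood above all normal-diet E171 mice. The difference was 0.72 (95% interval -0.01 to 1.46, adjusted p = 0.0996) in controls. In E171 mice it was 0.97 (SE 0.36, adjusted p = 0.0254), and this call was lost without WD_E171 mouse 2 (0.81, adjusted p = 0.0647) or mouse 3 (0.78, adjusted p = 0.0701).

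Prf1 was called higher in neither comparison. It lay at 6.80, 6.97 and 7.26 in normal-diet controls and at 6.66, 6.87 and 7.12 in Western-diet controls, a difference of -0.10 (95% interval -0.24 to 0.05, adjusted p = 0.286). In E171 mice it lay at 6.95, 7.09 and 7.26 and at 6.72, 6.92 and 7.03, with 6 of 8 normal-diet mice above every Western-diet mouse. There it was lower by -0.22 (SE 0.07, adjusted p = 0.0135), a small difference to which the limit of scaling given for Cd3e applies too. With quantile scaling it was -0.23 (adjusted p = 0.00616 in limma) and in the deposited values -0.16 (adjusted p = 0.0382).

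Klrb1c, which encodes NK1.1, was well above background at its brightest probe on 5 and 6 of 8 normal-diet control and E171 arrays and on 7 of 8 arrays in each Western-diet group. It lay at 1.80, 3.46 and 4.30 in normal-diet controls and at 2.57, 4.07 and 4.40 in Western-diet controls. Under E171 it lay at 2.87, 3.37 and 3.92 on the normal diet and at 3.70, 4.19 and 4.62 on the Western diet, where 7 of 8 Western-diet mice stood above every normal-diet mouse. The difference was 0.56 (SE 0.25, adjusted p = 0.0696) in controls and 0.78 (SE 0.25, adjusted p = 0.0104) in E171 mice. In controls it passed the threshold without ND_CONT mouse 6 (adjusted p = 0.0232) or WD_CONT mouse 5 (adjusted p = 0.0081), with array weights (0.81, adjusted p = 0.00492) and with the mean of its 2 kept probes (0.67, adjusted p = 0.0289). With normexp the call in E171 mice was lost (0.04, adjusted p = 0.596). A second probe of the gene gave 0.78 (adjusted p = 0.0372) and 1.17 (adjusted p = 0.00216), and the last of its probes cleared background on 1 of 32 arrays. The second probe cleared background on 1 and 2 of 8 normal-diet control and E171 arrays, and on 6 and 7 of 8 Western-diet ones. It passed the filter only through the Western-diet groups, so its direction is in part fixed by passing. The mean of the 2 kept probes shares this limit. Klrb1c belongs to a family of similar neighbouring genes, so some signal may come from its relatives.

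The promoters of these genes are shown for 1 motif, since Nkg7, Gzma and Gzmb varied together from mouse to mouse, as described below. RefSeq promoters (GRCm38.p6) matched 9 of the 10 genes; Cd4 had no entry. TGTGGT, the core sequence bound by RUNX factors, was searched on both strands in the 250 bases before each start, a choice made after the promoters were seen. It was present for 5 genes, Nkg7, Gzma, Gzmb, Prf1 and Klrb1c, and not for Cd3e, Cd3g, Cd8a or Themis, beside 15.9% of all genes with a promoter there. As the motif was chosen after these promoters were seen, the count beside 15.9% is no test of an excess. Cd3g also varied with Nkg7 and had no match. A match is a description of letters and not of a bound site. The 40 bases around each match are given, 5′ to 3′ on the gene's strand, with the motif in capitals (ACCACA is TGTGGT on the other strand).

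Nkg7: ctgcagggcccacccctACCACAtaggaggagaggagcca
Gzma: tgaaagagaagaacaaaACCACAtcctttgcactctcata
Gzmb, distal: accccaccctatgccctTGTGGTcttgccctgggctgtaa
Gzmb, proximal: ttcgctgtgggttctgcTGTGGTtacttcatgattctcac
Prf1: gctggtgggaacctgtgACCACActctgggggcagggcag
Klrb1c: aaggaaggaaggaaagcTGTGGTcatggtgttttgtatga

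The motif begins 83 bases before the start of Nkg7 (chr7:43437038-43437077, plus strand), 50 before Gzma (chr13:113101009-113101048, minus), 93 and 34 before Gzmb (chr14:56262405-56262444 and chr14:56262346-56262385, minus), 130 before Prf1 (chr10:61297689-61297728, plus) and 89 before Klrb1c (chr6:128788708-128788747, minus), with all positions those of the shown windows in GRCm38.p6. Genes with the motif were called in either diet direction or not called, Prf1 being called lower in E171 mice and Gzma higher.

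E171 gave no call among the 10 genes in any comparison. On the normal diet 0 of 10 were called (0% of all tested genes, of which 958 had an unadjusted p under 0.05), and the differences between E171 and control mice ran from -0.21 (Gzmb) to 0.17 (Nkg7). On the Western diet 0 of 10 were called, beside 0.38% of all tested genes, and the differences ran from -0.11 (Cd4) to 0.60 (Cd8a). At its brightest probe no member reached an unadjusted p under 0.05 in limma in either. In exact two-sided permutation tests of 8 against 8 mice the lowest p of these probes was 0.111 on the normal diet and 0.231 on the Western diet, where the design can reach 1.55e-04. The second probes of Cd3e and Klrb1c gave lower p-values on the Western diet. Cd3e probe 2 was higher under E171 by 0.26 (95% interval 0.06 to 0.46, exact permutation p = 0.0269), which did not pass adjustment in limma (unadjusted p = 0.0126, adjusted p = 0.253). Averaged over diets it gave 0.19 (unadjusted p = 0.00873, adjusted p = 0.245 in limma). Klrb1c probe 2 gave 0.61 (95% interval -0.02 to 1.23, exact permutation p = 0.0253; unadjusted p = 0.0556 and adjusted p = 0.431 in limma).

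The intervals differed in width between genes. On the Western diet, at the brightest probes, they were -0.15 to 0.16 for Cd3e, -0.16 to 0.14 for Prf1 and -0.39 to 0.17 for Cd4, but -0.45 to 1.66 for Cd8a, -0.37 to 1.28 for Gzmb and -0.32 to 1.15 for Nkg7. Of the 10 differences on the Western diet 8 were above 0, with a median of 0.25, beside a median of 0.01 over all tested genes. These are values of the same mice and no independent counts, since several of the genes vary together. Averaged over both diets, 0 of 10 were called, beside 0.368% of all genes.

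Whether the effect of diet differed between E171 and control mice was tested by the interaction, in which 0 of 10 members and 0% of all genes were called (1222 genes had an unadjusted p under 0.05). The difference between the diet effects was 0.69 (95% interval -0.81 to 2.19) for Cd8a, 0.67 (-0.50 to 1.83) for Gzmb, 0.24 (-0.80 to 1.29) for Nkg7 and 0.09 (-0.76 to 0.95) for Themis. The calls of Nkg7, Klrb1c and Prf1 in E171 mice alone were thus not shown to differ from the values in controls.

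**Figure D3:**
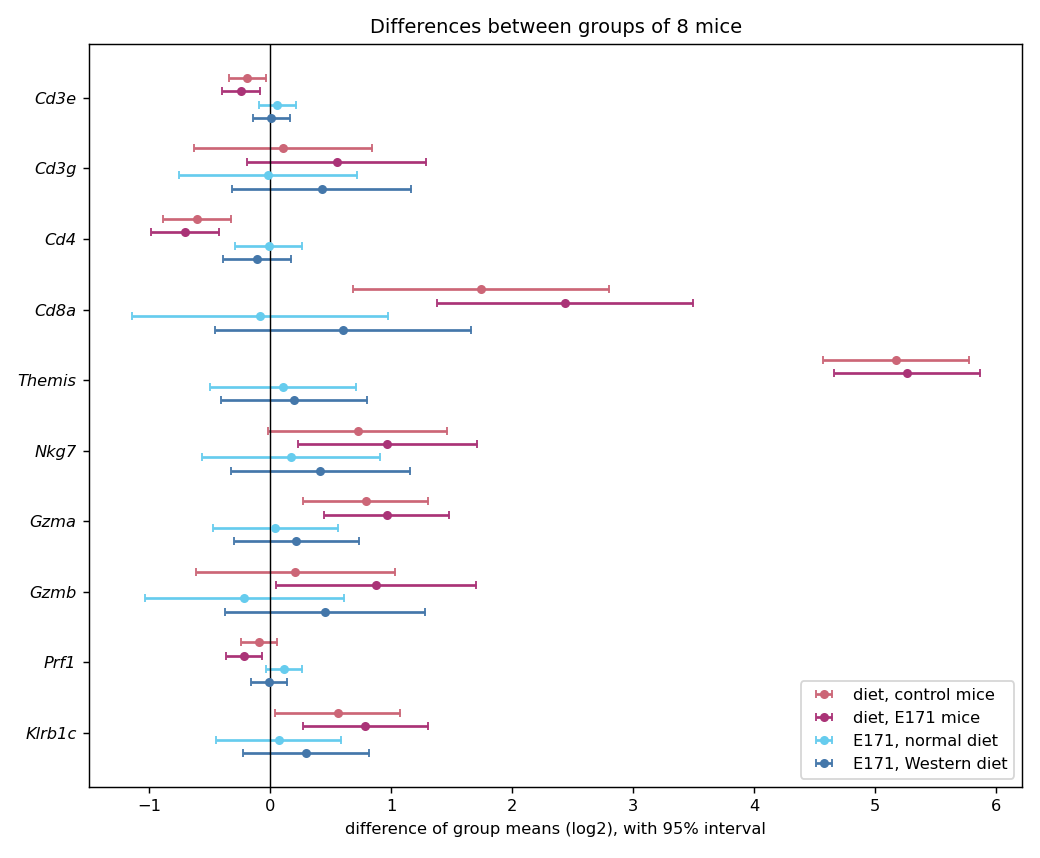
Difference of group means (log2) with its 95% interval for each gene: Western against normal diet in control and in E171 mice, and E171 against control on each diet (8 mice per group). At the brightest probe of each gene, the intervals of E171 include 0 for all 10, and those of diet lie apart from 0 in both comparisons for Cd3e, Cd4, Cd8a, Themis, Gzma and Klrb1c.

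Within groups, a subset of these genes rose and fell together from mouse to mouse. WD_CONT mouse 6 was the highest of its group for Cd3g (7.46), Cd8a (5.18), Nkg7 (9.85), Gzma (8.48), Gzmb (6.86) and Prf1 (7.12). WD_E171 mice 2 and 3 were the highest pair of theirs for Cd3g (7.22 and 7.07), Cd8a (6.01 and 5.75), Nkg7 (9.21 and 9.41), Gzma (8.45 and 8.02) and Gzmb (6.84 and 6.54). For Cd3e, WD_E171 mouse 2 was the highest (9.73), and mice 5 and 3 followed at 9.65 each. Mice 2 and 3 did not stand together at the top for Cd4, Themis, Prf1 or Klrb1c. WD_E171 mouse 3 was the lowest of its group for Prf1 (6.72).

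Correlations were taken over 32 mice after group means were removed, for the 8 genes detected (well above background) on 24 or more arrays, which leaves out Themis and Cd8a. Of 28 pairs, 9 passed an adjusted permutation p of 0.05 by Pearson's r and 7 by Spearman's rho. Cd3g with Nkg7 gave r = 0.92 (rho 0.89, r = 0.89 without the 2 farthest mice, p = 1e-05, the smallest 1e+05 permutations can give). Nkg7 with Gzmb gave r = 0.85 (rho 0.77, r = 0.75 without the 2), and Gzma with Gzmb gave r = 0.79 (rho 0.64, r = 0.68 without the 2), with adjusted permutation p of 1.4e-04 and 2.1e-04. Cd3e with Cd3g gave r = 0.61 (rho 0.63, r = 0.56 without the 2, adjusted permutation p = 0.00174).

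Over the 32 mice, no pair that holds Cd4 or Klrb1c passed: Cd4 with Nkg7 gave -0.21 and with Cd3g -0.01, and Klrb1c with Nkg7 gave 0.23. Prf1 passed with Cd3e by Pearson's r (0.47, adjusted permutation p = 0.0286), though not by rho (0.43, adjusted permutation p = 0.0674), and did not pass with Cd3g (0.38), Nkg7 (0.27), Gzmb (0.15) or Gzma (0.00). Several values differed in size between the diets. Nkg7 with Gzma gave r = 0.01 among the 16 normal-diet mice and 0.81 among the 16 Western-diet mice, Cd3g with Gzmb 0.38 and 0.92, and Cd3g with Prf1 0.74 and 0.16. Cd3e with Prf1 gave 0.73 and 0.16, Nkg7 with Prf1 0.66 and 0.12, and Cd3g with Klrb1c 0.69 and -0.18, so that Prf1 and Klrb1c had their higher values with these genes on the normal diet. For some pairs the sign differed too: Cd4 with Klrb1c gave 0.53 and -0.77, and Prf1 with Klrb1c 0.62 and -0.44. A low value over 32 mice can thus join opposite values on the 2 diets. The difference between the diets was not tested for any pair. Cd3g with Gzma (0.52) fell to 0.28 without the 2 farthest mice and rests on them.

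**Figure D4:**
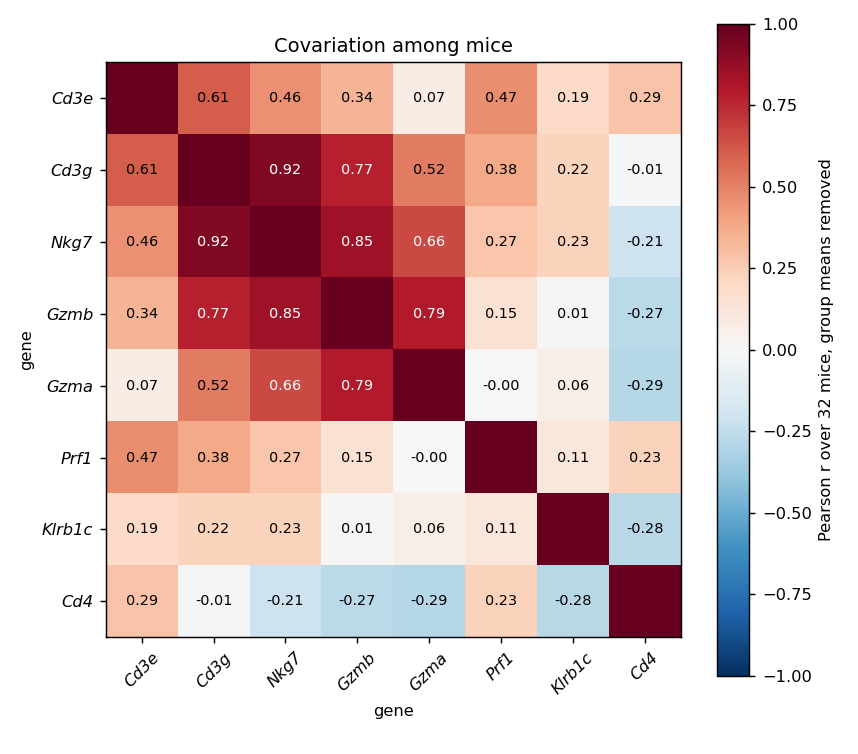
Pearson r of the log2 signals of 8 genes over 32 mice, with group means removed, as colour and number. Cd3g, Nkg7, Gzmb and Gzma form the block of high values, up to 0.92, and Cd4 and Klrb1c have low values with them.

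Cd3d, a CD3 chain outside the 10 genes, gave a common yardstick chosen after the data were seen; each of 13 probes was set against it, with p adjusted over the 13. Cd3g (r = 0.96), Nkg7 (0.93), Gzmb (0.76) and the Cd3e probes (0.63 and 0.66) followed it over 32 mice, and Cd8a did over the 16 Western-diet mice (0.90), with adjusted permutation p of 1.3e-04 to 4.33e-04. Spearman's rho for these 6 probes ran from 0.61 (Gzmb) to 0.94 (Cd3g), each past the threshold. Gzma gave r = 0.52 (adjusted permutation p = 0.0175), but rho 0.33 (adjusted permutation p = 0.158) and r = 0.27 without the 2 farthest mice. Prf1 gave 0.30 (adjusted permutation p = 0.203) and Klrb1c 0.22 (adjusted permutation p = 0.331). Some values differed between normal-diet and Western-diet mice. Gzmb gave 0.31 and 0.91, Gzma -0.04 and 0.72, Prf1 0.71 and 0.06, and Klrb1c 0.58 and -0.08. Cd3g gave 0.93 and 0.97, and Nkg7 0.95 and 0.94. Which genes followed Cd3d thus differed by diet, a difference that was not tested. The Cd4 probes gave -0.05 and 0.04 (adjusted permutation p = 0.871 for both). Themis gave 0.21 over the 16 Western-diet mice (adjusted permutation p = 0.576) and -0.13 without the 2 farthest.

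The genes whose variation was most like that of each member, of 18026 ranked by Pearson's r over 32 mice, differed between members. These are descriptions with no test. For Cd3g they were Cd3d (0.96), Lck (0.95), the kinase of the T cell receptor, and Nkg7 (0.92). For Nkg7 they were Ccl5 (0.98), a chemokine of effector lymphocytes, Cd3d (0.93) and Ms4a4b (0.93), and for Gzmb Ccl5 (0.86), Nkg7 (0.85) and Batf2 (0.82). For Gzma they were Gzmb (0.79), Calhm6 (0.77) and Gbp2 (0.73), of which Gbp2 is induced by interferon.

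For Cd4 they were Rbm15 (0.96), Lmx1b (0.95) and A730043L09Rik (0.93), and no gene of the T cell receptor was among the 3. For Cd3e they were Apol10b (0.71), Podnl1 (0.70) and Gimap3 (0.68), for Prf1 Psd4 (0.79), Vwa3b (0.79) and Stat5a (0.77), and for Klrb1c Pik3ap1 (0.73), Mas1 (0.70) and Fabp7 (0.70). Over the 16 Western-diet mice, a comparison added later, Cd8a was most like Cd8b1 (0.95), Ccl5 (0.94) and Nkg7 (0.94). Themis was most like Mpped2 (0.94), Orm3 (0.93), which encodes an acute phase protein, and Cdk6 (0.92).

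**Figure D5:**
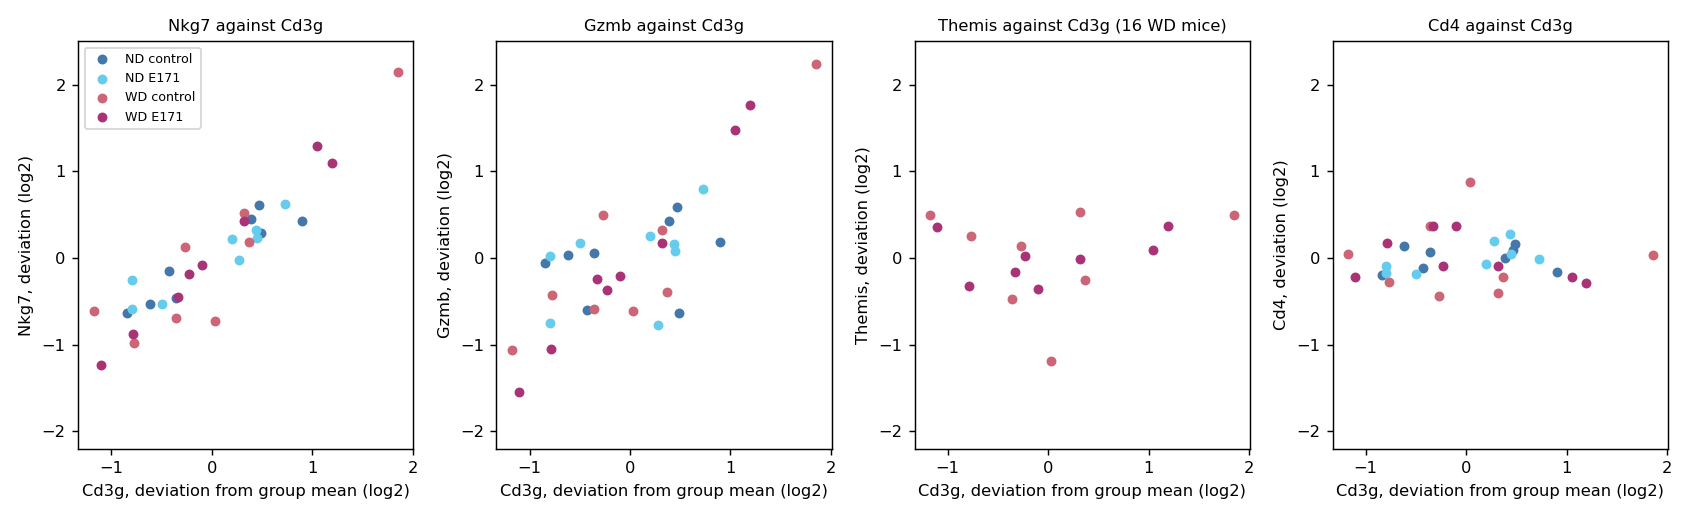
Each mouse's deviation from its group mean (log2) for Nkg7, Gzmb, Themis and Cd4 on the y axis against that for Cd3g on the x axis; colours are the 4 groups, and Themis is shown for the 16 Western-diet mice. Nkg7 (r = 0.92) and Gzmb (0.77) rose with Cd3g, with 3 Western-diet mice at the upper end, and Cd4 (-0.01) did not.

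Other genes of these pathways, from lists drawn up with earlier results of these data known, were counted in the same fit. Beside them stand the 18.5% of all tested genes called higher and 28.7% called lower in controls. In E171 mice these shares were 22.2% and 31%. Some genes of the lists passed the filter on dim probes only through the Western-diet groups, which in part fixes their direction, so the counts and medians are descriptions. Of 22 genes tested of the T cell receptor complex and its signalling, 7 were higher and 2 lower on the Western diet in controls (9 and 1 in E171 mice). The largest were Fyb (1.02, adjusted p = 9.63e-05 in limma) and Lcp2 (0.96), adaptors below the receptor, Ptpn22 (0.87), a phosphatase, and the adaptor Grap2 (0.79), while Ubash3a (-0.53) and the phosphatase Ptprc, CD45 (-0.48), were lower. The median of the list was 0.19. Of 13 coreceptors, costimulatory molecules and checkpoints, 5 were higher and 1 lower (8 and 1 in E171 mice), with a median of 0.45. Tnfrsf9, which encodes 4-1BB, was at least 2.35-fold higher in controls, being well above background on 0 of 8 normal-diet and 7 of 8 Western-diet arrays. Havcr2, which encodes TIM-3, differed by 1.70, Slamf6 by 1.16, and the checkpoint receptor gene Lag3 by -1.16.

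Of 15 NK cell receptors and adaptors tested, 10 were higher and 1 lower in controls (10 and 2 in E171 mice), with a median of 0.77. Klrb1a differed by 1.47 (adjusted p = 0.00102 in limma), Tyrobp, the adaptor DAP12 that myeloid cells carry too, by 1.43, Klrd1 by 1.36 and the Fc receptor Fcgr3 by 1.32; Cd244a was lower (-0.24). Of 17 cytotoxic granule and effector genes, 5 were higher and 1 lower (6 and 2 in E171 mice), with a median of 0.22. Ccl5 was higher by 1.66 (adjusted p = 6e-04), Serpinb6b by 1.08 and Stx11, a syntaxin of granule release, by 0.70, and Tnf was lower (-1.57).

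Of 20 homing and cytokine receptors, 7 were higher and 5 lower (8 and 7 in E171 mice), with a median of 0.13. Cx3cr1, the fractalkine receptor, was higher by 3.03, Ccr7 by 1.50 and Il7r by 1.30, and Il12rb1 (-1.44) and S1pr1 (-0.90) were lower. Of 16 transcription factors and related regulators, 5 were higher and 1 lower (6 and 2), with a median of 0.04. Themis2, the relative of Themis found in B cells and macrophages, was higher by 0.95, Runx3 and Ikzf1 by 0.90 each, and Tox by 0.87, with Id2 lower (-0.49). Of 20 signals that draw or engage these cells, 14 were higher and 2 lower (15 and 2), with a median of 0.93. The chemokines Ccl3 (3.63) and Ccl4 (3.03) and the NKG2D ligands Raet1e (1.91) and Raet1a (1.85) were the largest, and Il18 (-0.65) and Cxcl11 (-0.22) were lower. Without the filter, the genes called higher in controls were, in the order of the 7 lists, 7 of 23, 4 of 19, 12 of 27, 7 of 24, 7 of 21, 6 of 18 and 15 of 25. In that setting 29% of all genes were called in either direction in controls, and 39.6% of those calls were higher. E171 gave 0 calls in each of these 7 lists on the normal diet, and on the Western diet 0 calls except 1 lower call among the transcription factors.

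Markers of other cells moved with the diet too, and their part in the results above was not tested. Of 12 Kupffer cell and macrophage markers, 9 were higher and 0 lower in controls; their summed signal ranged from 15808 to 55049 (median 30238) in normal-diet and from 30512 to 82908 (median 66718) in Western-diet controls. In E171 mice that sum ranged from 21983 to 42793 and from 42319 to 96919. Of 8 hepatocyte markers, all 8 were lower in both comparisons, with a summed signal of 2050483 to 2574247 in normal-diet and 1460962 to 2172876 in Western-diet controls. Of 9 T cell markers tested, 2 were higher and 1 lower in each diet comparison, and the summed signal had a median of 2227 in normal-diet and 2196 in Western-diet controls, 2530 and 2229 in E171 mice. Cd3e and Cd3g are among these 9, with median intensities of 885 and 46 in normal-diet controls. Every summed signal given here adds different probes, so the brightest weigh most and it gives no count of cells. Of 6 NK cell and ILC1 markers tested, 3 were higher and 0 lower in controls and 4 and 1 in E171 mice; the summed signal ranged from 145 to 264 in normal-diet and 191 to 482 in Western-diet controls.

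Of the remaining marker lists, in controls, conventional dendritic cells had 5 of 7 higher and 1 lower, lipid-associated macrophages 6 of 8 higher and 1 lower (with a median summed signal of 37352 on the normal and 19336 on the Western diet), and neutrophils 2 of 6 higher and 1 lower. B and plasma cells had 1 of 7 higher and 1 lower, plasmacytoid dendritic cells 2 of 5 and 1, CD8 T cells 1 of 2 and 0, gamma-delta T cells 1 of 2 and 1, and mast cells and basophils 0 of 2 and 0. Xcr1, Blk, Cpa3, Mcpt8 and Ms4a2 were well above background on none of the 32 arrays. For E171 on the Western diet, these marker lists gave 1 call, Cd163l1 of the gamma-delta T cell list, which was higher by 1.95 (SE 0.29, adjusted p = 0.0013 in limma). It was well above background on 0 of 8 arrays in each normal-diet group, on 2 of 8 in Western-diet controls and on 8 of 8 in Western-diet E171 mice, and so passed the filter only through the last group.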

How the data were processed

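Per the file headers, the deposited scanner files of 32 mice hold processed Cy3 intensity values of 62976 spots, 1 channel, with probe positions on mm9; per the submitters' processing notes they come from Agilent Feature Extraction 10.10.1.1, and limma was used. The authors also deposited log2 values for 36695 probes, normalized in a way not given in the sources used here; these serve as an alternative. The processed signal was used as given, outlier spots (42 to 91 per array) were left out, log2 values of replicate spots were averaged, and each array's 75th percentile over non-control probes (an intensity of 175 to 342) was set to a common value. Probes well above background on at least 6 of 8 arrays of 1 group were kept (35777), and the brightest stood for a gene. All 32 arrays were fitted with limma 3.58.1 (R 4.3.3; reading with data.table, version 1.17.8), with 1 mean per group and no block, and two-sided p-values were adjusted by the method of Benjamini and Hochberg over 23656 genes. Other probes come from a fit of all kept or all probes.

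The members and lists were chosen with earlier results of these data known. All members are named, with, per list, up to 4 of the largest called differences in controls and up to 2 in the other direction, and per member the 3 most alike genes. Exceptions chosen after their values were seen are Cd3d and Cd8b1, the likeness of Cd8a and Themis, and the motifs. In simulated data for diet in controls (23656 genes), a small share of genes was changed, with independent normal noise per gene and no background limit. There 54% of changes of 0.5 (log2), 90% of 1 and 98% of 2 were recovered, with 4.02% of calls false. In the real comparison 47.3% of genes were called and genes vary together, so these rates need not hold for it. Array number limits the precision. Alternatives tried were normexp with an offset of 50, quantile and median scaling, the deposited values, other filters and probe rules, blocks, array weights, trend and robust variances, fits of 2 groups and leaving out each mouse. Sequences are from the scanner files and RefSeq (GRCm38.p6).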

Additional observations from a re-analysis of the deposited data

Results flagged for a closer look

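In Dixon's test of the highest and lowest mouse, run on the 10 genes in each of the 4 groups, 2 of 40 groups stood out, and chance alone flags about 1 in 20. WD_CONT mouse 6 had the highest Gzmb signal of its group, 6.86, with the next mouse at 5.11. WD_CONT mouse 5 had the lowest Klrb1c signal of its group, 2.57, with the next mouse at 3.67; this mouse was not well above background for that probe.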

How the results depend on the processing

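The number of genes called for diet in controls was 3 with normexp (2 higher, 1 lower) and 3 with the deposited values, against 5. Pairs of genes passing in their covariation numbered 5 among normal-diet mice alone, against 9. Within slide 4, with 2 mice per group, the differences in controls of Cd4 (0.11) and Gzma (-0.11) had the opposite sign. That slide held WD_CONT mouse 5, the highest of its group for Cd4 (14.17). The same mouse was the lowest of its group for Gzma (6.48), Themis (5.33) and Klrb1c (2.57). Leaving out each mouse gave 4 to 6 calls for diet in controls, 7 to 9 in E171 mice, and 0 in each E171 comparison and in the interaction. The causes were not tested. The labels do not say whether replicate numbers pair the mice. Between groups, mice of the same number had a mean correlation of residuals of 0.07 (-0.30 to 0.57), and those of other numbers -0.01. These values do not settle whether mice are paired. With the replicate block, members called were 5, 8, 0, 0, 0 and 0, as without it, while calls for E171 rose from 0.38% to 0.723% of all genes on the Western diet and from 0.368% to 0.63% averaged over diets; without the filter on dim probes they were 0.16% and 0.115%. Of 948 comparisons of a result with an alternative (each mouse left out aside), 898 were unchanged in direction and call or within the spread, 10 lost and 3 gained a call, 35 moved and 2 reversed. Dim signals limit Cd8a, Themis and Klrb1c.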
